A study of Rattus norvegicus with 8 samples.

Results

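The 4 genes described here, Gad1, Gad2, Slc32a1 and Slc12a5, serve inhibitory transmission by GABA, from making the transmitter to keeping the chloride gradient that its receptors use. They were chosen by gene identity, without use of measured values, as the rows of the deposited table with the identifiers ENSRNOG00000000007 (Gad1), ENSRNOG00000018200 (Gad2), ENSRNOG00000015393 (Slc32a1) and ENSRNOG00000018111 (Slc12a5). All 4 were found among the 32883 genes of the table. The tissue was the lower cord of outbred Sprague Dawley rats, 23 days after a spinal cord injury. Every animal was injured, per the design text by a hemisection at the T9 level, and the sampled cord below was described there as intact. The trained group (4 libraries) received training after the injury and the untrained group (4 libraries) did not. There was no uninjured group, and the sources used here do not state the animals' ages, what the training was or how many animals a library holds. P-values set the difference between the groups against the spread between libraries, and this spread is technical where libraries share an animal.

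Inhibitory neurons of the spinal cord make GABA from glutamate with a pair of glutamate decarboxylases. GAD67, encoded by Gad1, is found throughout the cell, and GAD65, encoded by Gad2, is concentrated at nerve terminals. The transporter VGAT, encoded by Slc32a1, loads GABA and also glycine into synaptic vesicles, so it is used by both kinds of inhibitory neuron. The cotransporter KCC2, encoded by Slc12a5, moves chloride out of neurons, and this outward transport is what lets GABA and glycine receptors hyperpolarise the cell. Loss of KCC2 from motor neuron membranes and its recovery with exercise are known from work on spasticity after spinal cord injury.

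Expression was measured by CEL-Seq2, which counts the 3′ ends of transcripts and tags each captured molecule with a unique molecular identifier (UMI), so that the copies of a molecule made by PCR count once. A library held between 192472 and 453390 UMIs. Trained libraries had a mean total of 255630 ± 97444 and untrained libraries of 360994 ± 88541 UMIs (SD, n = 4 each). Levels are given in CPM, that is, UMIs scaled to a common library total, with the library totals adjusted by TMM, the trimmed mean of M values. Because each UMI stands for a transcript end, levels were not divided by gene length. In bulk tissue, fewer cells of a type and less RNA per cell cannot be told apart.

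Of the 4 genes, 3 had enough UMIs for a test, with 591 for Gad1, 439 for Gad2 and 950 for Slc32a1 over the 8 libraries. Slc12a5 had too few, with 1 UMI in all. The cotransporter was listed at 1 UMI in trained replicate 1 and at 0 in the other 7 libraries. With 0 UMIs the level could still reach 6.66 CPM in the library with the most UMIs and 18.4 CPM in the one with the fewest (3 counts, counting error only). Over all libraries together the 1 UMI gave 0.428 CPM, with an exact Poisson 95% interval of 0.0108 to 2.39. These limits assume that the 3′ end of the transcript lies in the region counted for this gene. The sources used here do not show whether it does. No fold change between trained and untrained cords can be given for Slc12a5, and a difference in its transcript cannot be judged from 1 UMI. A total of 1 UMI was shared by 1376 genes, or 10.55% of the 13048 genes with any UMI. In the RefSeq annotation of build GRCr8, Slc12a5 overlaps 1 other gene, LOC108350521, and the other 3 genes overlap none. What lies behind the low count was not tested.

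The genes for both decarboxylases and the vesicular transporter were measured in every library, and for none of the 3 did the difference between the groups pass the threshold (an adjusted p under 0.05). Gad1 was at 162, 162, 257 and 364 CPM in untrained replicates 1 to 4, on 62, 57, 54 and 164 UMIs. In trained replicates 1 to 4 it was at 234, 160, 306 and 430 CPM, on 93, 31, 50 and 80 UMIs. The groups overlapped, and in each of them the libraries numbered 3 and 4 were the highest.

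For Gad1, which makes most of the resting GABA of a neuron, the mean level was 236 ± 96.1 CPM without and 282 ± 115 CPM with training (SD, n = 4 each). The fit gave a log2 fold change of 0.24 ± 0.31 (SE; edgeR quasi-likelihood test, Benjamini-Hochberg adjusted p = 0.99998 over 4086 genes), with a 95% interval from 0.75-fold to 1.85-fold. A two-sided exact permutation test of mean log2 CPM over the 70 assignments of 4 of 8 libraries gave p = 0.571, not adjusted. Trained libraries were higher in 3 of 4 same-numbered pairs, by 0.51, 0.25 and 0.24 on the log2 scale in pairs 1, 3 and 4, and stood at -0.02 in pair 2. How many of all genes tested had 3 of 4 pairs on one side was not counted. In the fit that compares same-numbered libraries as pairs, the log2 fold change was 0.27 ± 0.15 (SE; edgeR with numbers as blocks, adjusted p = 0.994, unadjusted p = 0.0818). The interval narrowed to 0.97-fold to 1.49-fold, and the call did not change. With 1 library left out, the unpaired estimate ran from -0.04 without trained replicate 4, the library with the highest Gad1 level, to 0.55 without untrained replicate 4, and it was 0.42 without trained replicate 2.

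Gad2, the gene for the decarboxylase of the terminals, was at 220, 193, 171 and 144 CPM in untrained replicates 1 to 4, on 84, 68, 36 and 65 UMIs. In trained replicates 1 to 4 it was at 208, 268, 135 and 156 CPM, on 83, 52, 22 and 29 UMIs. The ranges overlapped, and here the libraries numbered 3 and 4 were the lowest in both groups. The mean was 182 ± 32.2 CPM without and 192 ± 59.3 CPM with training (SD, n = 4 each). Trained minus untrained was 0.09 ± 0.24 on the log2 scale (SE; edgeR adjusted p = 0.99998; two-sided exact permutation p = 0.886), with a 95% interval from 0.74-fold to 1.51-fold. The pairs were split, with trained libraries higher by 0.45 and 0.11 on the log2 scale in pairs 2 and 4 and at -0.08 and -0.33 in pairs 1 and 3. The paired fit gave 0.07 ± 0.17 (SE; edgeR adjusted p = 0.997). The sign of the unpaired estimate turned without trained replicate 2 (-0.11) or without untrained replicate 4 (-0.02).

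Slc32a1, the transporter gene, was at 558, 401, 338 and 340 CPM in untrained replicates 1 to 4, on 213, 141, 71 and 153 UMIs. In trained replicates 1 to 4 it was at 419, 489, 349 and 285 CPM, on 167, 95, 57 and 53 UMIs. As for Gad2, the groups overlapped and the libraries numbered 3 and 4 were the lowest in each. The mean was 409 ± 103 CPM without and 386 ± 87.97 CPM with training (SD, n = 4 each). Trained minus untrained was -0.08 ± 0.23 on the log2 scale (SE; edgeR adjusted p = 0.99998; two-sided exact permutation p = 0.80), with a 95% interval from 0.68-fold to 1.31-fold. The pairs were again split, and trained libraries stood at -0.41 and -0.25 on the log2 scale in pairs 1 and 4 and were higher by 0.28 and 0.05 in pairs 2 and 3. The paired fit gave -0.10 ± 0.14 (SE; edgeR adjusted p = 0.994). Without untrained replicate 1, the library with the highest Slc32a1 level, the unpaired estimate was 0.10, and without trained replicate 4 it was 0.03.

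**Figure D1:**
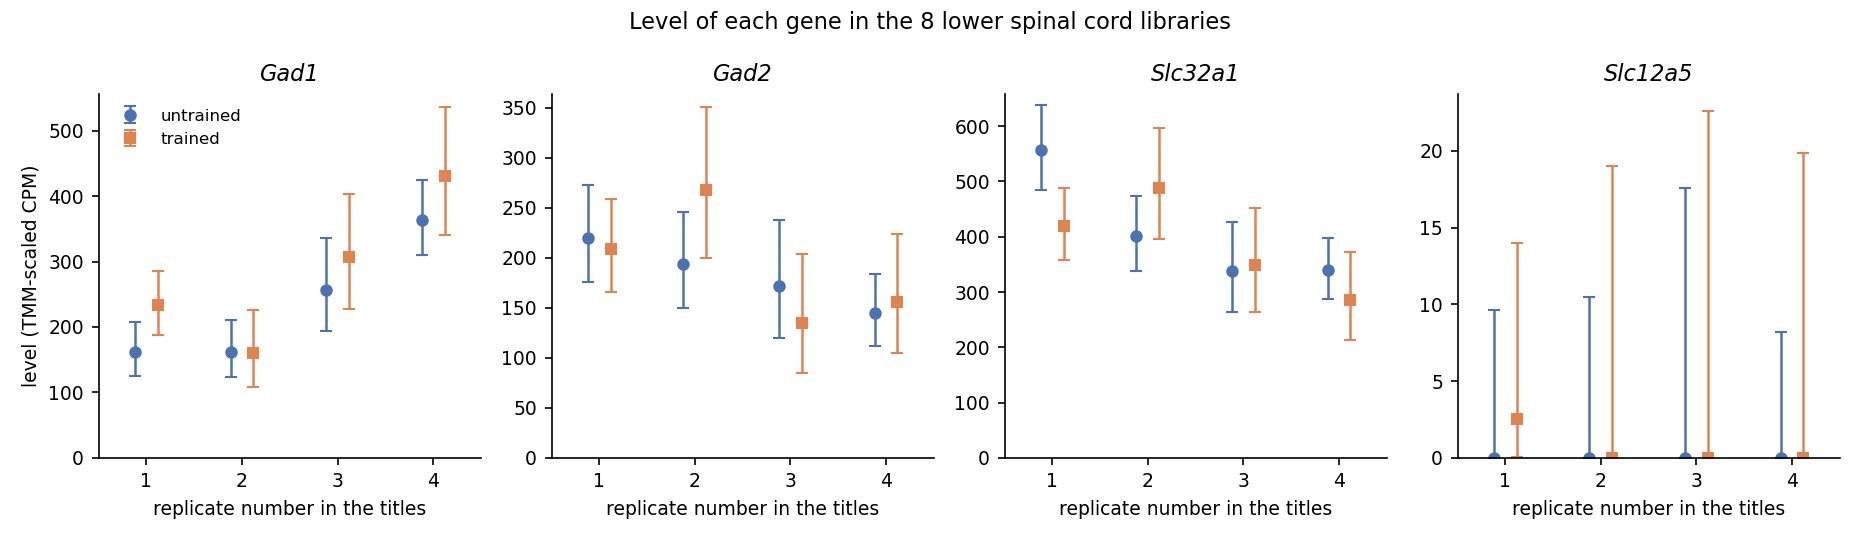
Level of each gene in TMM-scaled CPM (vertical axes start at 0 and differ in scale) against the replicate number in the sample titles, with circles for untrained and squares for trained libraries and bars for the exact Poisson 95% interval of the count. Gad1 lay between 160 and 430 CPM and was highest in the libraries numbered 4, Gad2 and Slc32a1 were lowest in the libraries numbered 3 and 4, and Slc12a5 had 1 UMI in trained replicate 1 and 0 elsewhere.

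Read against the whole table, 0 of the 3 genes tested passed the threshold and 0 had an unadjusted p under 0.05, where 0 of 4086 genes (0%) passed and 52 (1.27%) had an unadjusted p under 0.05 in edgeR without the block. DESeq2, run without the filter, called 0 of 13046 genes, of which 63 had an unadjusted p under 0.05. For limma-voom these numbers were 0 and 57 of the 4086. With the block, 2 genes (0.0489%) passed in edgeR, neither of them among these, and 171 (4.19%) had an unadjusted p under 0.05. Trained and untrained libraries did not overlap in 45 of the 4086 genes (1.10%), and overlapped in all 3 of these. The absolute log2 fold changes of 0.24, 0.09 and 0.08 had a median of 0.09, beside a median of 0.15 over all genes tested.

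The intervals give a bound on the change that could have been missed. For each of Gad1, Gad2 and Slc32a1 the 95% interval lay inside a 2-fold change in either direction, with and without the block, as it did for 79.98% of all genes tested without the block. For Gad1 this bound was lost in 4 of 26 alternatives. Its upper limit rose to 2.27-fold without untrained replicate 4, 2.10-fold without trained replicate 2, 2.06-fold without trained replicate 1 and 2.04-fold with library depth as a covariate. For Gad2 and Slc32a1 it held in all 26. Changes inside the interval of each gene are not excluded by that fit, and no detection limit was computed.

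**Figure D2:**
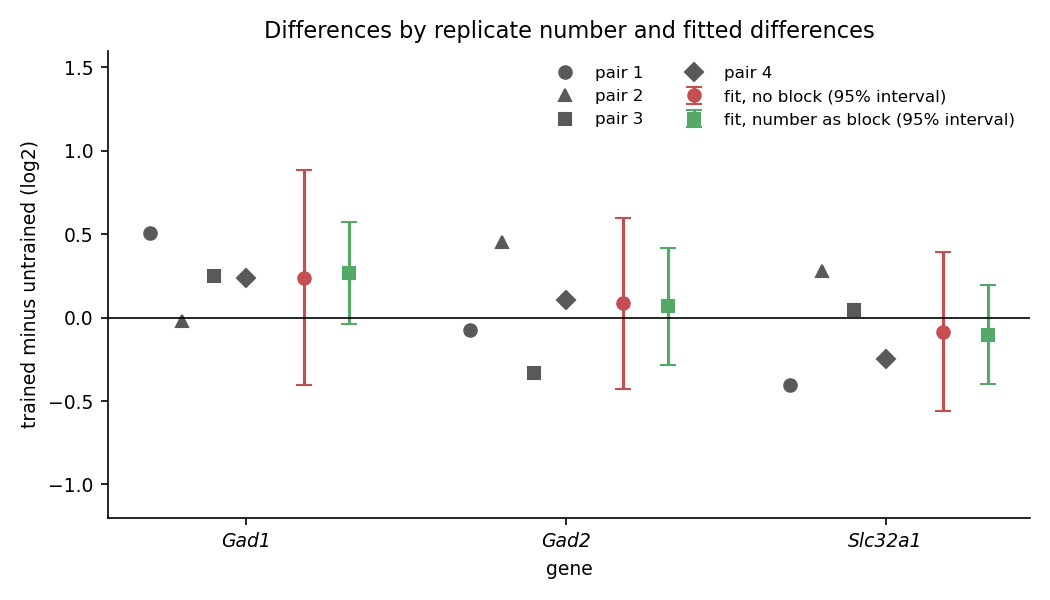
Trained minus untrained log2 level of the 3 genes with enough UMIs, with grey symbols for the 4 same-numbered pairs, a red circle for the fit without and a green square for the fit with numbers as blocks, each with its 95% interval. All 6 intervals include 0. Gad1 had 3 of its 4 pairs above 0, and Gad2 and Slc32a1 had 2 each.

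In both groups the libraries numbered 3 and 4 stood apart from those numbered 1 and 2 in all 3 genes, higher in Gad1 and lower in Gad2 and Slc32a1. The labels do not say what the number stands for. The libraries numbered 1 and 2 were set apart from those numbered 3 and 4 because earlier results of these data showed this parting over the whole table, so the counts here are a description with no test. Gad1 lay between 160 and 234 CPM in the 4 libraries numbered 1 and 2 and between 257 and 430 CPM in the 4 numbered 3 and 4. Gad2 went the other way, with 193 to 268 CPM in the libraries numbered 1 and 2 and 135 to 171 CPM in those numbered 3 and 4. Slc32a1 went the way of Gad2, with 401 to 558 CPM against 285 to 349 CPM. The ranges did not overlap for any of the 3 genes, which was also so for 16.5% of all genes tested. The library totals of the same sets overlapped, with 216786 to 400934 UMIs for numbers 1 and 2 and 192472 to 453390 for numbers 3 and 4.

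Within these sets, trained and untrained libraries were compared again. In the libraries numbered 1 and 2, Gad1 had a mean of 162 CPM untrained and 197 CPM trained, and in those numbered 3 and 4 a mean of 311 and 368 CPM. The corresponding ratios of trained to untrained were 1.21 and 1.19. For Slc32a1 they were 0.947 and 0.936, and for Gad2 1.15 and 0.921. The single pairs behind these ratios spread more widely. In pairs 1 to 4 the ratio was 1.44, 0.98, 1.19 and 1.18 for Gad1. It was 0.75, 1.22, 1.03 and 0.84 for Slc32a1, and 0.95, 1.38, 0.79 and 1.08 for Gad2. In edgeR fits of 2 trained against 2 untrained libraries within each set, 0 of the 4086 genes passed (91 and 81 with an unadjusted p under 0.05), so none of these 3 did.

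Ratios between the genes within a library do not depend on how libraries are scaled. The Gad1 share of Gad1 and Gad2 UMIs had to part by number, since Gad1 was higher and Gad2 lower in numbers 3 and 4. It is thus another view of those levels, and shares of other gene pairs were not computed. Gad1 made up 42.5%, 45.6%, 60.0% and 71.6% of the Gad1 and Gad2 UMIs in untrained replicates 1 to 4. In trained replicates 1 to 4 its share was 52.8%, 37.3%, 69.4% and 73.4%. The lowest share, in trained replicate 2, had a Wilson 95% interval of 27.7% to 48.1%, and the highest, in trained replicate 4, one of 64.4% to 80.8%. These intervals cover counting error only. The shares thus ran from 37.3% to 52.8% in the libraries numbered 1 and 2 and from 60.0% to 73.4% in those numbered 3 and 4, while the group means were 54.9% ± 13.5 untrained and 58.3% ± 16.5 trained (SD, n = 4 each). In both groups the libraries numbered 3 and 4 had the higher Gad1 shares.

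Slc32a1 and Gad2, in contrast, kept a similar proportion in all libraries. Slc32a1 made up between 64.6% and 72.2% of the Slc32a1 and Gad2 UMIs, with group means of 68.9% ± 2.46 untrained and 67.1% ± 3.55 trained (SD, n = 4 each). Its widest Wilson 95% interval, in trained replicate 4 on 82 UMIs, was 53.8% to 74.1%. The spread of counts between libraries of a group was set against counting error. In the untrained libraries the counts of Gad1 had a chi-square against a constant share of the scaled library of 15.8 per degree of freedom. The same measure was 9.36 for Slc32a1 and 2.31 for Gad2, where counting error alone gives a value near 1. In trained libraries it was 9.76 for Gad1, 3.83 for Slc32a1 and 3.31 for Gad2. This measure rises with the number of UMIs, so it does not rank genes or groups by relative spread. The SD of the CPM, in percent of its mean, was 40.7 untrained and 40.9 trained for Gad1. It was 25.3 and 22.8 for Slc32a1, and 17.6 and 30.9 for Gad2.

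**Figure D3:**
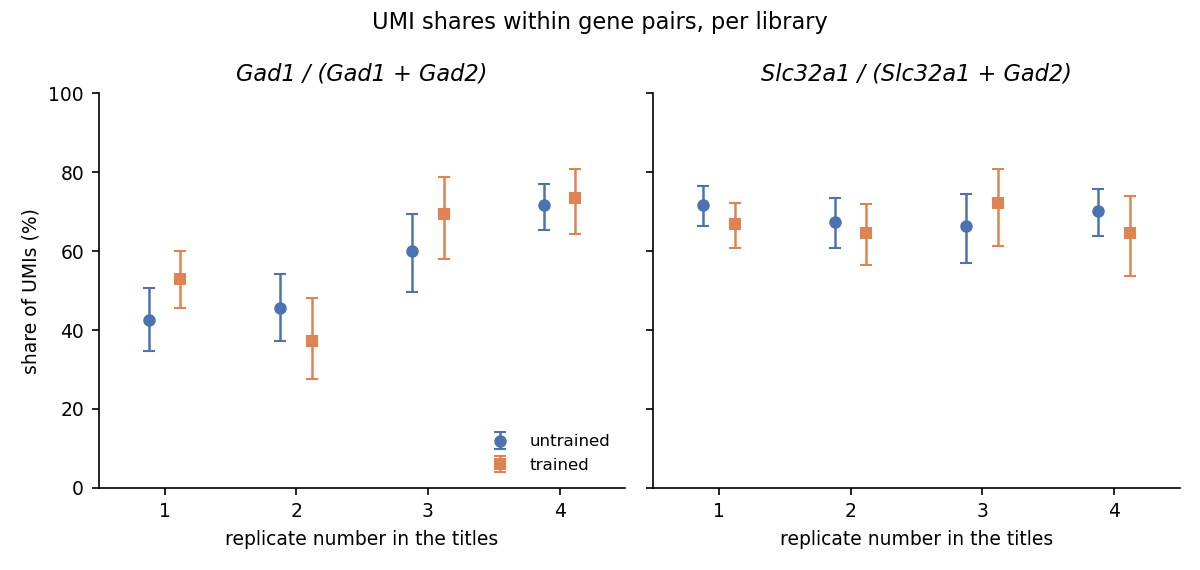
Share of UMIs in percent within a library, Gad1 of Gad1 and Gad2 on the left and Slc32a1 of Slc32a1 and Gad2 on the right, against the replicate number, with circles for untrained and squares for trained libraries and bars for the Wilson 95% interval. The Gad1 share ran from 37.3% to 73.4% over the 8 libraries, and the Slc32a1 share from 64.6% to 72.2%.

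The sequences before the start sites of Gad1, Gad2 and Slc32a1 are shown in RefSeq's annotation of build GRCr8. This is not the build of the counts (Rnor_6.0). A relation between these sequences and the levels was not tested. Capitals mark matches to any of 5 short motifs, searched on both strands and chosen after the sequences had been seen: the TATA box TATAAA, the CCAAT box CCAAT, the GC box GGGCGG, the E-box core CACGTG and the cAMP response element TGACGTCA. All 3 genes lie on the plus strand. Of Gad1, only the 58 bases before the outermost annotated start are printed.
Gad1, chr3:75777202-75777259: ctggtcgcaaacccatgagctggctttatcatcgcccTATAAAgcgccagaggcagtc
Gad2, chr17:89671468-89671717: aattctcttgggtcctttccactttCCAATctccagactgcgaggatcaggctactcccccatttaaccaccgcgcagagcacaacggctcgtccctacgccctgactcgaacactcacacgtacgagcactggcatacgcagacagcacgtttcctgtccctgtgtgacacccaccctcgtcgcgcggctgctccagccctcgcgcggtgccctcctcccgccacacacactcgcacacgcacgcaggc
Slc32a1, chr3:167686995-167687244: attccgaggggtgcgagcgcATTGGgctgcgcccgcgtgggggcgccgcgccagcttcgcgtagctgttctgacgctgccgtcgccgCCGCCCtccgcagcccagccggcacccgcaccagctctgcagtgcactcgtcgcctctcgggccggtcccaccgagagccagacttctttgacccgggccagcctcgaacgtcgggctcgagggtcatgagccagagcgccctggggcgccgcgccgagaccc

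In the 300-base window of the table (250 bases before to 50 after the start it uses), Gad1 held TATAAA, 21 bases before its outermost start, as did 14.2% of all 33469 windows of that length. Gad2 and Slc32a1 each held CCAAT, 225 and 230 bases before the start and on opposite strands, as did 37.5% of all windows. GGGCGG was found in the windows of Gad1 and Slc32a1 and in 33.1% of all windows, and CACGTG and TGACGTCA in neither Gad1, Gad2 nor Slc32a1 (6.42% and 1.83% of all windows). In Gad1 it lay 93 bases before the start that the table uses, which is 192 bases after the outermost one. The window of Slc12a5, not printed, held 1 CCAAT and 1 GGGCGG. The GC content of the windows was 67.7% for Gad1, 63.7% for Gad2 and 73.7% for Slc32a1, against a median of 51.7% over all windows. It was lower in 88.4%, 81.5% and 95.7% of all windows. These windows held 26, 29 and 42 CpG dinucleotides, against a median of 7, and 84.8%, 88.5% and 97.6% of all windows held fewer. The Slc12a5 window had a GC content of 61.3% and 16 CpG dinucleotides, above 76.8% and 69.5% of all windows. The Gad1 window began only 58 bases before its outermost start, and those of Gad2 and Slc32a1 began 250 bases before theirs. In these bases before the outermost start the GC content was 55.2%, 62.0% and 73.6%, with 3, 22 and 34 CpG dinucleotides. These matches are a description of the letters and say nothing of the factors that bind them.

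While Gad1 parted by number in the direction opposite to Gad2 and Slc32a1, their sum had a narrower relative range. Summing genes that part in opposite directions narrows the range by arithmetic, and sums of other genes were not computed. The summed level of the 4 genes was 828 ± 85.3 CPM without and 860 ± 51.97 CPM with training (SD, n = 4 each), with all 8 libraries between 757 and 940 CPM. The 2 genes whose log2 CPM was most like that of the sum over the 8 libraries, among 4083 compared, were ENSRNOG00000017510 (Pearson's r = 0.93, 23.8 to 65.5 CPM) and ENSRNOG00000021215 (r = 0.92, 119 to 168 CPM). They were picked as the highest of all genes and from libraries that share their number effects, so their r is a description. Neither gene passed the test of trained against untrained libraries (log2 fold changes of 0.10 and 0.06, edgeR adjusted p = 0.99998 for both).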

How the data were processed

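The authors deposited 1 table of raw counts, UMI counts per Ensembl gene in 8 libraries (CEL-Seq2 and Illumina HiSeq1500, per the labels' protocols), without normalisation. The submitters' processing notes name HISAT2 2.0.4, HTSeq 0.6.0 and build Rnor_6.0. The sources used here do not state the UMI length, UMI collapsing, strand setting or annotation release. Every column of the table was a sample of the series. No deposited identifier matched the RefSeq table (GRCr8), so the symbols of the 4 genes came with their identifiers, and the fixed lists of GABA and glycine pathway genes and cell type markers were not analysed here. The tissue label was therefore checked by no other marker.

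Genes were kept by filterByExpr (at least 10 counts at the median library size, in 4 libraries), which left 4086. The test was edgeR's quasi-likelihood test (edgeR 4.0.16, R 4.3.3) with TMM scaling and a Benjamini-Hochberg adjusted p under 0.05 over all genes kept. Log2 CPM used a prior count of 2, and CPM used scaled totals over kept genes. The SE of a log2 fold change was its size over the root of the F statistic. limma 3.58.1, DESeq2 1.42.0, other filters, scalings and left-out libraries were alternatives. The fits were tested on simulated data. The 12 pairs of libraries within a group differed beyond counting noise (chi-square of 2.83 to 5.61 per degree of freedom). Across 4086 genes, same-numbered libraries deviated together from their group means, with correlations of 0.34, 0.34, 0.30 and 0.53 for numbers 1 to 4, a pairing taken from the data, since the labels do not explain the numbers. Correlations between libraries of different numbers were not examined. The values therefore do not tell a pairing by number from the parting of numbers 1 and 2 from 3 and 4. The genes named were the 4 members and the 2 genes most like their sum. The members, lists and tests were chosen with earlier results of these data known.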

Additional observations from a re-analysis of the deposited data

Results flagged for a closer look

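Of 12 sets of 4 libraries examined (the totals, the levels of Gad1, Gad2 and Slc32a1, the Gad1 share and the summed level, in each group), 1 held a value far from the other 3, where chance gives about 1 in 20. This was the total of trained replicate 1, 400934 UMIs, whose gap to the next library was 0.883 of the range, above Dixon's limit for 4 values. It is the library with the 1 UMI of Slc12a5. No library stood apart in this way in the levels of Gad1, Gad2 or Slc32a1.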

How the results depend on the processing

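None of Gad1, Gad2 and Slc32a1 passed the threshold in any of the 27 alternatives, with adjusted p between 0.954 and 0.99999. Their log2 fold changes ran from -0.04 to 0.55 for Gad1, from -0.11 to 0.20 for Gad2 and from -0.25 to 0.10 for Slc32a1 (-0.22 to 0.10 when 1 library was left out). The sign turned in 1, 4 and 4 alternatives. For Gad1 this was -0.043 without trained replicate 4. For Gad2 it was -0.02 without untrained replicate 4, -0.11 without trained replicate 2, -0.094 with the replicate block and without replicate 2, and -0.11 in replicates 3 and 4 only. For Slc32a1 it was 0.10 without untrained replicate 1, 0.026 without trained replicate 4, 0.041 with the replicate block and without replicate 1, and 0.031 with library depth as a covariate. Other scalings turned no sign. The replicate block changed no call of these genes. Over the whole table, 0 genes passed, against 2 with the replicate block in edgeR and in limma-voom, 6 with no filter, 18 with no filter and the block (chosen after seeing the data), and 0, 2, 5 and 5 with the block and without replicates 1 to 4. Leaving out 1 library without the block gave 0 genes each time. The cause was not tested. Slc12a5 had too few UMIs for a fold change, with 1 in all, and counting error is part of every level given.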
